A study of Homo sapiens with 56 samples.

Results

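The unfolded protein response and the chaperones of the endoplasmic reticulum (ER) are described here through 38 genes chosen by name. These 38, and the other ER gene lists used below, were chosen with earlier results of these data known. Their shares, set beside those of all genes tested, are therefore descriptions and not tests. All 38 were among the 59081 gene symbols present in both count tables, and all 38 passed the filter on low counts in Mv4;11 (20495 genes tested) and in KG-1 (18618 genes tested). By role they comprise 10 ER HSP70 and HSP90 chaperones with their co-chaperones, 2 lectin chaperones, 6 disulfide isomerases and oxidases, 10 genes of ER-associated degradation, 6 stress sensors and transcription factors, and 4 genes of translocation into the ER and export from it.

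RNA sequencing compared 2 acute myeloid leukaemia lines, Mv4;11 and KG-1, exposed for 3 h or 12 h to 1 µM PMR-116 or to 1 µM CX-5461. Both compounds are inhibitors of RNA polymerase I, the enzyme that transcribes ribosomal RNA. Each compound had a vehicle group of its own (citric acid and NaH2PO4) in each line and at each time, which gave 16 groups and 56 libraries. Mv4;11 had 3 libraries a group and KG-1 had 4, and the labels put Mv4;11 in batch 1 and KG-1 in batch 2, so that a difference between the lines cannot be told apart from a difference between the batches.

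The ER folds and modifies proteins of the secretory pathway. HSPA5 (BiP) binds unfolded chains there with the help of DNAJ co-chaperones, CALR and CANX hold glycoproteins, and disulfide isomerases set their disulfide bonds. Proteins that fail to fold are taken back to the cytosol and degraded (ER-associated degradation), through a membrane complex built on SEL1L and the ubiquitin ligase SYVN1. When unfolded proteins accumulate, 3 sensors in the ER membrane signal: IRE1 (gene ERN1), which splices the XBP1 transcript into the form that encodes an active transcription factor, PERK (gene EIF2AK3), which slows translation and raises ATF4, and ATF6, which is cleaved to release a transcription factor. XBP1 and ATF6 raise many of the chaperone and degradation genes listed here. Gene counts do not separate spliced from unspliced XBP1.

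Total estimated counts were 28751951 to 41542587 in the 24 Mv4;11 libraries and 31010467 to 72707768 in the 32 KG-1 libraries. Of 11 leukaemia line markers, 10 averaged over 1 CPM (counts relative to library size after TMM scaling) in every group of both lines. Nothing in the labels says that libraries of a group came from separate cultures, so p-values measure the spread between these libraries, which may be technical. In bulk RNA, fewer cells of a type and less RNA per cell cannot be told apart. The library labelled Mv4;11 vehicle (PMR-116) 12 h replicate 3 stood apart from its group in the summed level of 7 abundant noncoding RNAs (10162 CPM, against a lowest value of 4446 CPM in that group), and the counts of the 38 genes called with PMR-116 at 12 h in Mv4;11 are given with and without it. The 7 are RN7SL1, RN7SL2, RN7SK, MALAT1, NEAT1, MT-RNR1 and MT-RNR2. MT-RNR2, a mitochondrial ribosomal RNA, held most of the sum in every library, so the sum mainly follows that RNA and not all 7 together. Of the related symbols searched, the pseudogene PDIA3P1 held 1.02% of the counts of PDIA3 in Mv4;11 and 0.933% in KG-1, and the divergent transcripts DNAJC3-DT and EIF2AK3-DT held 3.80% and 4.39% of the counts of their partners in Mv4;11 and 7.35% and 6.58% in KG-1. The library kit keeps strand, but the strand setting of the quantification is not given in the sources used here.

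Several of these genes are known to be switched on through the ER stress response element (ERSE), and their promoters are shown because the members that carry it are among those described below. RefSeq promoter windows (GRCh38.p14, 250 bases before to 50 bases after a gene's annotated start) were on hand for 34 of the 38 genes, in 42 windows. The genes PDIA3, SEC24D, DERL1 and DERL3 are named only. The ERSE was searched on both strands as CCAAT, 9 bases of any kind and CCACG. It stood in the windows of 8 of the 34 genes (23.5%: ERO1B, PDIA6, CANX, HSPA5, HSP90B1, CALR, XBP1 and CRELD2), against 0.0769% of all 35116 windows. ERSE-II, searched as ATTGG, 1 base and CCACG, stood in those of HYOU1, HERPUD1 and SDF2L1 (8.82% of the 34 genes, against 0.0541% of all windows). The XBP1-type element TGACG followed directly by TGG stood in those of DNAJC10 and HYOU1 (5.88%, against 0.729%), where it overlapped an ERSE-II in HYOU1. The C/EBP-ATF composite, TGATG, 1 base and AAT, the type of site used by ATF4 and DDIT3, stood in 0 of the 34 genes' windows, against 0.991% of all windows. A match describes the letters of the window and shows no binding.

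The 150 bases before the annotated start are printed 5′ to 3′ on the gene's own strand for HERPUD1 (chr16:56931992-56932141, plus strand, ERSE-II in capitals), XBP1 (chr22:28800570-28800719, minus strand, ERSE in capitals) and HSPA5 (chr9:125241344-125241493, minus strand, ERSE in capitals). These 3 genes were chosen because HERPUD1 and XBP1 had the largest falls at 3 h and HSPA5 is the main ER chaperone.
HERPUD1: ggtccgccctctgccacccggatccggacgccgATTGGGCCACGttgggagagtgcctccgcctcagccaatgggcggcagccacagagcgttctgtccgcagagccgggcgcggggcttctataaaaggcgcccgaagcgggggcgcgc
XBP1: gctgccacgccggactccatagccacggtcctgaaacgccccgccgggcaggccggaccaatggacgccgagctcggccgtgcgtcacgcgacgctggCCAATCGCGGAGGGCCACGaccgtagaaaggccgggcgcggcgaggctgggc
HSPA5: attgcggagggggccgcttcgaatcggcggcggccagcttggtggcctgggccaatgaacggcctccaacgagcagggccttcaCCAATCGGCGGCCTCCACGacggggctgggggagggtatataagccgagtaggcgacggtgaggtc
The ERSE-II of HERPUD1 starts at position -117 from the annotated start, the ERSE of XBP1 at -52 and the ERSE of HSPA5 at -66. Each run of capitals ends in CCACG because the search required these letters. They are the part of the element that ATF6 and XBP1 are known to bind.

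In Mv4;11 the ER genes were mostly lower after either compound, and the largest called falls were in HERPUD1 and XBP1 at 3 h and in DERL3 at 12 h, followed at 12 h by MANF, SDF2L1 and CALR with PMR-116 and by ERO1A, MANF and PDIA6 with CX-5461. Over the 4 Mv4;11 comparisons of a compound with its vehicle, 29 of the 38 genes were lower in at least 1, 5 were higher in at least 1, and 6 were called in none (DNAJC10, ERO1B, DERL2, EIF2AK3, ATF6 and WFS1). These are 76.3%, 13.2% and 15.8% of the 38, against 30.8%, 30.1% and 42.8% of all genes tested. HYOU1, MANF, PDIA4 and HERPUD1 were lower in all 4 (10.5%, against 2.5% of all genes tested). A gene was called when edgeR's quasi-likelihood test gave a Benjamini-Hochberg adjusted p below 0.05 over all genes tested, and log2 fold changes are of the compound over its own vehicle. The heat map of the 38 genes shows the calls by line, compound and time.

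**Figure D1:**
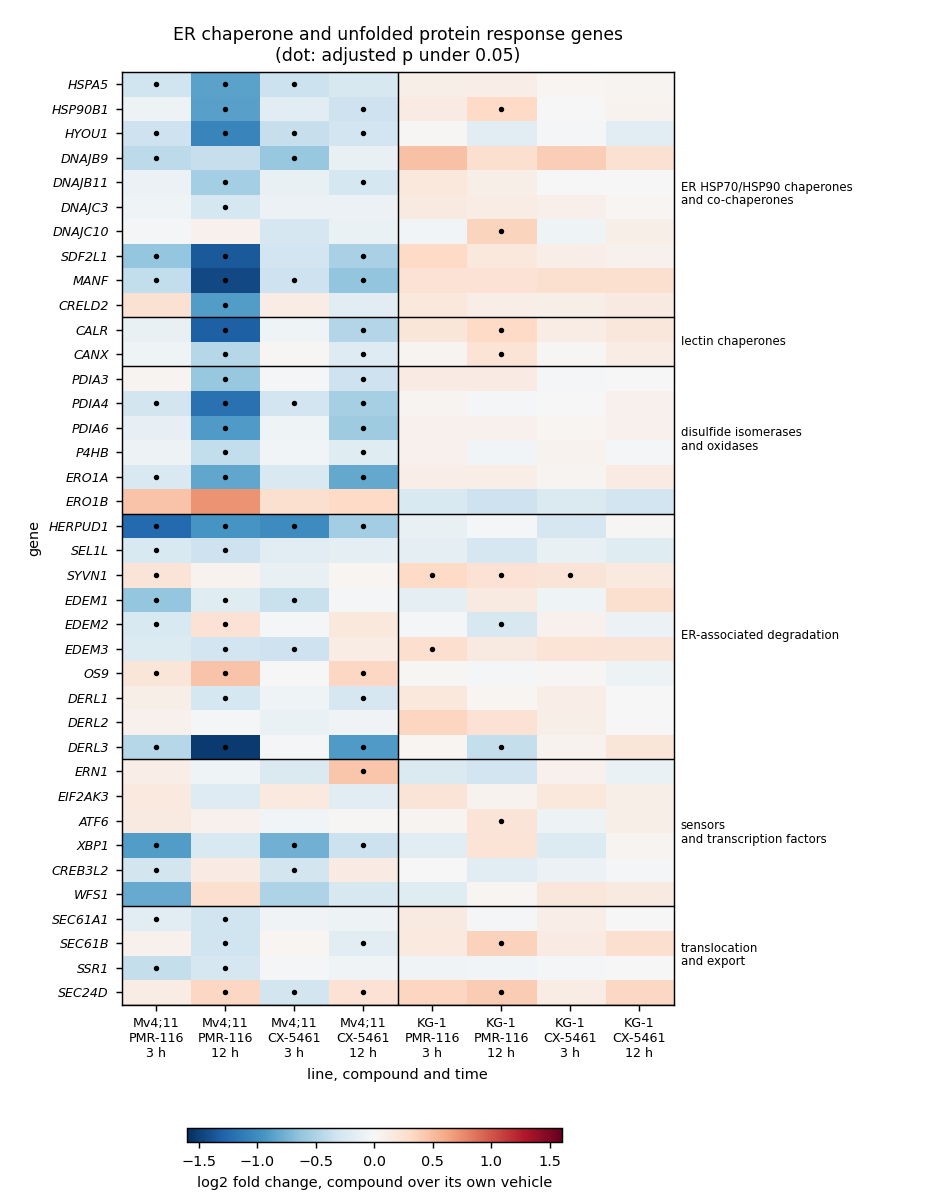
Log2 fold change of each of the 38 genes (rows, by role) for each compound over its own vehicle (columns: Mv4;11 left, KG-1 right, PMR-116 then CX-5461, 3 h then 12 h). Blue is lower and red is higher in the compound libraries, and a dot marks an adjusted p below 0.05. Mv4;11 holds most of the blue cells, with DERL3 (-1.53) and MANF (-1.44) at the low end under PMR-116 at 12 h, while no KG-1 value lies beyond -0.38 or 0.47.

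After 3 h of PMR-116 in Mv4;11, 16 of the 38 genes were lower and 2 were higher relative to library size, as tested by edgeR. This is 42.1% lower and 5.26% higher, against 13.1% and 11% of all genes tested. The median log2 fold change of the 38 genes was -0.12, against 0.00 over all genes tested. The libraries of PMR-116 and vehicle did not overlap for 15 genes that lay below and 5 that lay above, and overlapped for 18. Over all genes tested, 18.1% lay below and 17.8% above. The 16 that fell were 5 of the 10 chaperones and co-chaperones, 0 of the 2 lectins, 2 of the 6 isomerases and oxidases, 5 of the 10 degradation genes, 2 of the 6 sensors and transcription factors, and 2 of the 4 translocation and export genes.

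HERPUD1, a ubiquitin-like ER membrane protein that helps assemble the SYVN1 complex, had 82.2, 54.3 and 59.9 CPM in the PMR-116 libraries, against 178, 138 and 147 CPM in the vehicle libraries. All 3 PMR-116 libraries lay below all 3 vehicle libraries. The log2 fold change was -1.24 ± 0.14 (SE, adjusted p = 4.92e-07 by edgeR), a level 0.423 times that of the vehicle. EDEM1, a lectin-like protein that directs misfolded glycoproteins to degradation, had 134, 142 and 122 CPM with PMR-116, against 193, 214 and 206 CPM with vehicle. The groups did not overlap, and the log2 fold change was -0.62 ± 0.06 (SE, adjusted p = 3.99e-08 by edgeR). Of the same class, SEL1L, EDEM2 and DERL3 also fell, by 0.24, 0.24 and 0.46 on the log2 scale.

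The 2 genes that rose at 3 h of PMR-116 were both of the degradation class. SYVN1, the ubiquitin ligase of the complex that HERPUD1 joins, had 85.7, 84.6 and 84.6 CPM with PMR-116, against 76.5, 73.1 and 71.9 CPM with vehicle. OS9, a lectin that hands misfolded glycoproteins to that complex, had 288, 324 and 307 CPM with PMR-116, against 261, 273 and 272 CPM with vehicle. Neither pair of groups overlapped, and both rises were small, with a log2 fold change of 0.20 ± 0.06 (SE, adjusted p = 0.00899 by edgeR) for SYVN1 and of 0.19 ± 0.06 (SE, adjusted p = 0.0217 by edgeR) for OS9. The call of OS9 ended without vehicle replicate 1 (adjusted p = 0.0844), PMR-116 replicate 2 (0.126) or PMR-116 replicate 3 (0.0632).

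Among the transcription factors, XBP1 had 171, 125 and 126 CPM with PMR-116 at 3 h, against 302, 229 and 255 CPM with vehicle. Every PMR-116 library was below every vehicle library, and the log2 fold change was -0.90 ± 0.13 (SE, adjusted p = 1.09e-05 by edgeR). CREB3L2, a transcription factor released from the ER membrane by cleavage, fell by 0.30 on the log2 scale. The sensors themselves did not pass the test. ERN1 had 23.5, 24.6 and 25.6 CPM with PMR-116, against 25.6, 22.2 and 21.04 CPM with vehicle (log2 fold change 0.10 ± 0.09). For EIF2AK3 the PMR-116 libraries had 31.5, 27.97 and 31.3 CPM, against 29.2, 23.3 and 28.6 CPM with vehicle (0.16 ± 0.12). Both of these sensors had overlapping groups. ATF6, with 67.9, 75.7 and 75.9 CPM, against 64.3, 66.6 and 67.0 CPM with vehicle, had groups that did not overlap and a log2 fold change of 0.15 ± 0.06 (SE, adjusted p = 0.0752 by edgeR).

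Of the chaperones, SDF2L1, a partner of HSPA5 and its DNAJ proteins, had 20.4, 18.6 and 17.5 CPM after 3 h of PMR-116, against 27.1, 29.8 and 30.05 CPM with vehicle. Its groups did not overlap, and its log2 fold change of -0.62 ± 0.12 (SE, adjusted p = 0.000292 by edgeR) was the largest fall of the class. HSPA5 had 636, 676 and 584 CPM with PMR-116, against 812, 777 and 776 CPM with vehicle (log2 fold change -0.32 ± 0.10 SE, adjusted p = 0.0201 by edgeR). DNAJB9, a co-chaperone of HSPA5, had 12.8, 11.7 and 11.3 CPM, against 18.4, 14.7 and 14.8 CPM (-0.42 ± 0.15 SE, adjusted p = 0.0450 by edgeR). All PMR-116 values of both genes lay below all vehicle values. The call of HSPA5 ended without PMR-116 replicate 3 (adjusted p = 0.110) or vehicle replicate 1 (0.0618). The call of DNAJB9 ended without PMR-116 replicate 2 (0.108) or 3 (0.146), or without vehicle replicate 1 (0.205) or 3 (0.0569). HYOU1, MANF, PDIA4 and ERO1A fell by 0.25 to 0.39 on the log2 scale, as did SSR1 (0.38) and SEC61A1 (0.18) of the translocation apparatus.

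The count at 3 h of PMR-116 rested on single libraries. Of the 18 called genes, 8 kept their call whichever library was left out (HERPUD1, XBP1, EDEM1, SDF2L1, MANF, PDIA4, SSR1 and SYVN1). The number of genes that fell was 9 without vehicle replicate 1, 10 without PMR-116 replicate 2 and 8 without PMR-116 replicate 3. The number that rose was 1 without each of these 3 libraries, and 4 without PMR-116 replicate 1. Scaled by library totals instead of TMM (edgeR's trimmed mean of M-values, which assumes that most genes do not change), 11 fell and 4 rose. Under that scaling 2251 of all 20495 genes tested fell and 2877 rose. The summed level of the 7 abundant noncoding RNAs was 6366 to 7227 CPM in the PMR-116 libraries, against 3065 to 4244 CPM in the vehicle libraries. Of these, MT-RNR2 had 5361 to 6164 CPM, against 2574 to 3649 CPM, and MT-RNR1 had 711 to 841 CPM, against 248 to 341 CPM. RN7SL1, RN7SL2, RN7SK, MALAT1 and NEAT1 overlapped between the groups. The 11 leukaemia line markers summed to 1013 to 1053 CPM with PMR-116, against 1250.2 to 1327 CPM with vehicle. The part of either sum in these falls was not tested.

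With CX-5461 at 3 h, 11 of the 38 genes fell and 0 rose in Mv4;11 by edgeR, 28.9% and 0%, against 6.61% and 5.05% of all genes tested. The number higher was also 0 at an unadjusted p below 0.05 and 0 by DESeq2, which called 1212 of all 20495 genes tested higher. The median log2 fold change of the 38 was -0.12, against 0.00 over all genes. The libraries of CX-5461 lay below those of the vehicle for 16 genes, above for 0, and overlapped for 22, while 14.7% of all genes tested lay below and 13.4% above. The falls were in 4 of the 10 chaperones, 1 of the 6 isomerases and oxidases, 3 of the 10 degradation genes, 2 of the 6 sensors and transcription factors, and SEC24D, a cargo-binding subunit of the COPII export coat.

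HERPUD1 had 98.4, 65.4 and 73.3 CPM in the CX-5461 libraries at 3 h, against 182, 150.1 and 142 CPM in the vehicle libraries. XBP1 had 178, 128 and 157 CPM with CX-5461, against 291, 238 and 258 CPM with vehicle. Neither gene's groups overlapped, and the log2 fold changes were -1.002 ± 0.14 (SE, adjusted p = 1.41e-05 by edgeR) for HERPUD1 and -0.77 ± 0.13 (SE, adjusted p = 0.000157 by edgeR) for XBP1. DNAJB9 had 9.17, 10.0 and 12.7 CPM, against 14.9, 15.8 and 17.9 CPM with vehicle, again with no overlap (-0.61 ± 0.15 SE, adjusted p = 0.00885 by edgeR). HYOU1, a large HSP70-type chaperone that exchanges the nucleotide of HSPA5, had 284, 302 and 264 CPM, against 378, 371 and 347 CPM (-0.37 ± 0.09 SE, adjusted p = 0.0106 by edgeR). For HSPA5 itself the values were 629, 689 and 584 CPM with CX-5461, against 798, 839.7 and 774 CPM with vehicle (-0.34 ± 0.10 SE, adjusted p = 0.0236 by edgeR). Both chaperones were lower in every CX-5461 library than in any vehicle library.

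The sensors again did not pass the test at 3 h of CX-5461. ERN1 had 21.6, 22.9 and 22.5 CPM, against 25.5, 27.2 and 25.8 CPM with vehicle (log2 fold change -0.23 ± 0.09, adjusted p = 0.127 by edgeR), and here the groups did not overlap. EIF2AK3 had 30.3, 24.7 and 34.9 CPM, against 26.4, 26.9 and 27.5 CPM (0.15 ± 0.12), and ATF6 had 68.4, 70.9 and 66.1 CPM, against 70.6, 72.2 and 68.5 CPM (-0.04 ± 0.06). The groups of both overlapped. Of the 11 genes called, HERPUD1, XBP1 and EDEM1 kept their call whichever library was left out. The number of falls was 6 without CX-5461 replicate 1, 5 without vehicle replicate 2 and 4 without CX-5461 replicate 3. The call of HYOU1 ended without CX-5461 replicate 3 (adjusted p = 0.0756), and that of DNAJB9 without CX-5461 replicate 1 (0.0633) or vehicle replicate 3 (0.0511). That of HSPA5 ended without CX-5461 replicate 1 (0.0694) or 3 (0.134), or without vehicle replicate 1 (0.0593) or 2 (0.0941). The 7 noncoding RNAs summed to 4302 to 5313 CPM with CX-5461, against 3448 to 3992 CPM with vehicle, the leukaemia line markers to 1073 to 1129 CPM, against 1231 to 1308 CPM, and the 10 fibroblast, endothelial and epithelial markers to 85.2 to 91.9 CPM, against 78.3 to 81.99 CPM. Their part was not tested.

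**Figure D2:**
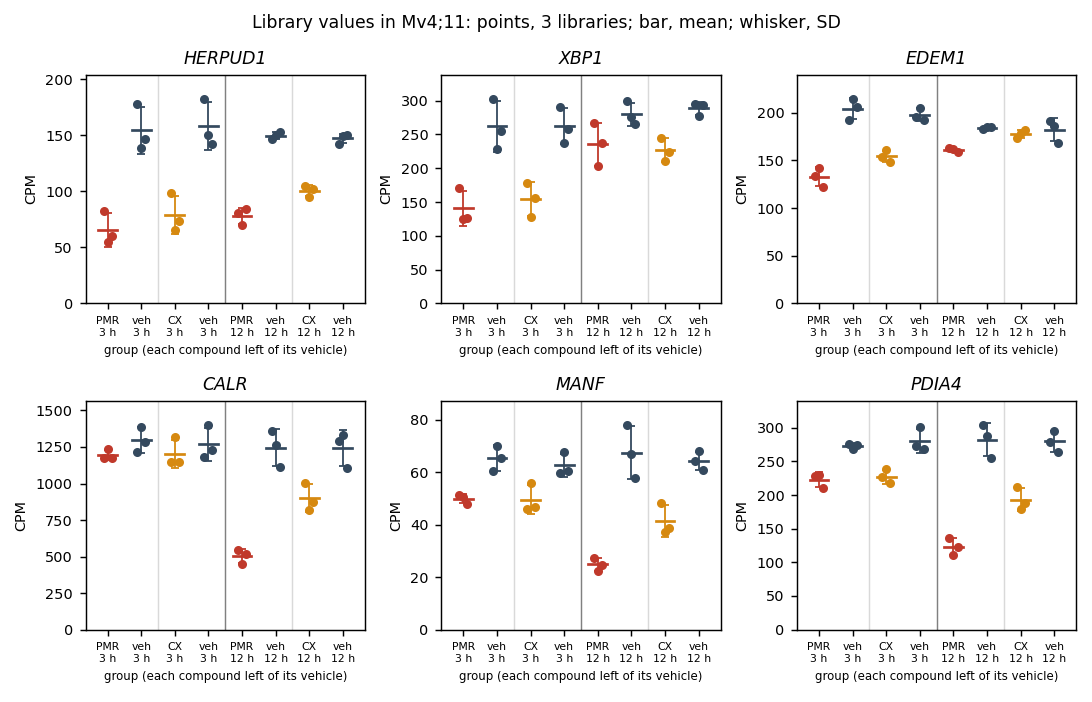
CPM (vertical axes, from 0) of HERPUD1, XBP1, EDEM1, CALR, MANF and PDIA4 in every Mv4;11 library, each compound left of its own vehicle, 3 h left of 12 h. Points are the 3 libraries of a group, the bar is their mean and the whisker their SD. HERPUD1 is low in all 4 compound groups, while CALR was not called at 3 h and lies at 449.9 to 544 CPM after 12 h of PMR-116.

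By 12 h of PMR-116, the fall in Mv4;11 covered most of the folding machinery: 24 of the 38 genes were lower and 3 were higher by edgeR. This is 63.2% and 7.89%, against 22.5% and 20.7% of all genes tested. The median log2 fold change of the 38 was -0.32, against 0.01 over all genes. PMR-116 libraries lay below all vehicle libraries for 25 genes and above for 5, and overlapped for 8. Of all genes tested, 25% lay below and 25.7% above. Leaving out vehicle replicate 3, 27 lay below and 6 above, against 29.5% and 32.1% of all genes tested. By role, 8 of 10 chaperones and co-chaperones fell, both lectins, 5 of 6 isomerases and oxidases, 6 of 10 degradation genes (with 2 higher), 0 of 6 sensors and transcription factors, and 3 of 4 translocation and export genes (with 1 higher).

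Of the chaperones, MANF, a small secreted stress protein that binds HSPA5, had 27.4, 22.4 and 24.7 CPM after 12 h of PMR-116, against 77.8, 66.8 and 57.7 CPM with vehicle. Its log2 fold change was -1.44 ± 0.11 (SE, adjusted p = 1.52e-10 by edgeR). SDF2L1 had 11.3, 8.89 and 11.3 CPM, against 27.9, 25.2 and 26.5 CPM (-1.34 ± 0.12 SE, adjusted p = 1.99e-09 by edgeR). HSPA5 had 459, 369 and 432 CPM, against 860.1, 769 and 650.2 CPM (-0.85 ± 0.10 SE, adjusted p = 1.48e-07 by edgeR). The groups of all 3 genes were well separated, and the vehicle replicate 3 that stood apart was the lowest of its group for MANF and HSPA5. HYOU1 (-1.05), CRELD2 (-0.90), HSP90B1 (-0.87), DNAJB11 (-0.55) and DNAJC3 (-0.28) also fell. DNAJC10, a reductase among the DNAJ proteins, did not pass the test, nor did DNAJB9, which had 10.3, 10.3 and 12.1 CPM, against 13.4, 13.5 and 15.2 CPM (-0.37 ± 0.15, adjusted p = 0.0553 by edgeR) with no overlap.

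The lectin chaperone CALR (calreticulin) had 544, 449.9 and 514 CPM with PMR-116 at 12 h, against 1362, 1264 and 1112 CPM with vehicle. The lowest vehicle library held more than any PMR-116 library, and the log2 fold change was -1.31 ± 0.09 (SE, adjusted p = 4.76e-11 by edgeR), a level 0.403 times that of the vehicle. Its membrane-bound relative CANX fell by 0.45 on the log2 scale. The disulfide isomerases PDIA4, PDIA6, PDIA3 and P4HB fell by 1.20, 0.91, 0.60 and 0.39, and the oxidase ERO1A by 0.83. Its paralog ERO1B, which averaged 2.90 CPM over the Mv4;11 vehicle libraries, had a log2 fold change of 0.72 that did not pass the test.

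In the degradation class at 12 h of PMR-116, DERL3, a derlin of the retrotranslocation channel, had 8.003, 6.51 and 9.12 CPM, against 24.6, 22.4 and 21.1 CPM with vehicle. No library of one group reached the other, and its log2 fold change of -1.53 ± 0.16 (SE, adjusted p = 2.65e-08 by edgeR) was the largest fall of the 38. HERPUD1 had 80.5, 69.9 and 84.1 CPM, against 146, 151 and 153 CPM (-0.94 ± 0.14 SE, adjusted p = 3.97e-06 by edgeR), again without overlap. SEL1L, EDEM3, DERL1 and EDEM1 fell by 0.33, 0.31, 0.28 and 0.19, and DERL2 was not called in any of the comparisons of a compound with its vehicle.

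The 3 genes that rose came from the degradation and export classes. OS9 had 381, 350.4 and 361 CPM with PMR-116, against 279, 274 and 243 CPM with vehicle (log2 fold change 0.46 ± 0.06 SE, adjusted p = 8.07e-07 by edgeR). SEC24D had 69.0, 60.4 and 61.7 CPM, against 55.6, 49.6 and 46.9 CPM (0.33 ± 0.07 SE, adjusted p = 0.000768 by edgeR). EDEM2, another mannosidase-like degradation factor, had 34.8, 35.4 and 37.1 CPM, against 30.95, 32.5 and 28.3 CPM (0.23 ± 0.08 SE, adjusted p = 0.0190 by edgeR). None of these groups overlapped. The call of EDEM2 ended without PMR-116 replicate 2 (adjusted p = 0.0628) or 3 (0.103), or without vehicle replicate 3 (0.144).

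None of the 6 sensors and transcription factors passed the test at 12 h of PMR-116. At an unadjusted p below 0.05 the whole set of 38 held 25 lower and 4 higher genes. DESeq2 called 25 lower and 4 higher, against 4801 and 4092 of all 20495 genes tested. XBP1 had 267, 203 and 237 CPM, against 299, 275 and 266 CPM with vehicle (log2 fold change -0.25 ± 0.12, adjusted p = 0.112 by edgeR). The values of ERN1 were 24.1, 24.3 and 24.1 CPM, against 23.9, 22.5 and 29.5 CPM (-0.07 ± 0.09). EIF2AK3 had 25.7, 23.04 and 21.02 CPM, against 28.2, 29.7 and 23.02 CPM (-0.21 ± 0.12), and ATF6 had 78.4, 72.7 and 70.4 CPM, against 71.8, 65.3 and 74.3 CPM (0.07 ± 0.06). The groups of all 4 genes overlapped.

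Of the 27 genes called at 12 h of PMR-116, 23 kept their call whichever library was left out. Without the vehicle library that stood apart, 25 fell and 3 rose. Scaled by library totals, 18 fell and 7 rose, against 3203 and 6275 of all 20495 genes tested. Under that scaling the middle gene of all genes tested had a log2 fold change of 0.18 after PMR-116 at 12 h and of 0.12 after CX-5461. The 7 noncoding RNAs summed to 10164 to 10952 CPM in the PMR-116 libraries, against 4446 to 10162 CPM in the vehicle libraries. The leukaemia line markers summed to 1289 to 1395 CPM with PMR-116, against 1152 to 1270 CPM with vehicle. The fibroblast, endothelial and epithelial markers, of which 3 of 10 averaged over 1 CPM, summed to 112 to 126 CPM, against 60.4 to 72.3 CPM, and most of that sum was PECAM1 (104 to 117 CPM, against 50.4 to 65.7 CPM), while COL3A1 was at 0 in both groups. The erythroid and megakaryocyte markers, of which 2 of 10 averaged over 1 CPM, summed to 31.01 to 32.4 CPM, against 22.2 to 26.8 CPM, with HBA1, HBB, PF4 and PPBP at 0 in both groups. The part of these levels in the falls was not tested.

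CX-5461 at 12 h gave a smaller set in Mv4;11, with 17 of the 38 genes lower and 3 higher by edgeR (44.7% and 7.89%, against 16.5% and 14.8% of all genes tested). The median log2 fold change was -0.17, against 0.04 over all genes. The libraries of CX-5461 lay below for 18 genes, above for 6, and overlapped for 14, against 22.6% below and 23.4% above over all genes tested. The falls were in 5 of 10 chaperones, both lectins, 5 of 6 isomerases and oxidases, 3 of 10 degradation genes, XBP1 and SEC61B, a subunit of the translocation channel.

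DERL3 had 12.6, 10.7 and 13.2 CPM after 12 h of CX-5461, against 24.996, 20.1 and 23.7 CPM with vehicle (log2 fold change -0.91 ± 0.15 SE, adjusted p = 6.19e-05 by edgeR). ERO1A, the oxidase that recharges disulfide isomerases, had 22.2, 21.5 and 21.96 CPM, against 37.2, 37.9 and 40.8 CPM (-0.82 ± 0.09 SE, adjusted p = 1.42e-07 by edgeR). Both genes were lower in every CX-5461 library. MANF had 48.4, 37.3 and 38.7 CPM, against 64.0, 67.9 and 60.7 CPM (-0.63 ± 0.11 SE, adjusted p = 6.42e-05 by edgeR), and PDIA6 had 297, 261 and 273 CPM, against 428, 413 and 395 CPM (-0.57 ± 0.06 SE, adjusted p = 2.06e-07 by edgeR). HERPUD1 had 105, 94.98 and 102 CPM, against 142, 149 and 150.4 CPM (-0.55 ± 0.13 SE, adjusted p = 0.00269 by edgeR). None of these 3 genes had overlapping groups. XBP1, with 245, 211 and 224 CPM, against 295, 278 and 293 CPM, had a log2 fold change of -0.35 ± 0.12 (SE, adjusted p = 0.0356 by edgeR) that lost its call without any of 5 libraries, at adjusted p from 0.0520 to 0.110 (CX-5461 replicates 2 and 3 and each vehicle library).

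ERN1, the gene of the sensor IRE1, was called higher at 12 h of CX-5461. It had 28.8, 24.8 and 31.6 CPM, against 20.99, 20.7 and 21.1 CPM with vehicle, with no overlap, and its log2 fold change was 0.44 ± 0.09 (SE, adjusted p = 0.000800 by edgeR). OS9 had 326, 320.0 and 338 CPM, against 255, 259 and 267 CPM (0.33 ± 0.06 SE, adjusted p = 0.000107 by edgeR), and SEC24D had 64.4, 56.1 and 63.6 CPM, against 53.9, 51.8 and 51.4 CPM (0.23 ± 0.07 SE, adjusted p = 0.0206 by edgeR). Both were higher in every CX-5461 library, but the call of SEC24D ended without CX-5461 replicate 1 (adjusted p = 0.140) or 3 (0.0876), or without vehicle replicate 2 (0.0674) or 3 (0.0998).

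HSPA5 had 705, 572 and 611 CPM at 12 h of CX-5461, against 802, 794 and 656 CPM (-0.25 ± 0.10, adjusted p = 0.0524 by edgeR), with overlapping groups. Overlap was also seen for DNAJB9 (13.1, 14.7 and 8.96 CPM, against 14.5, 14.1 and 11.5 CPM), EIF2AK3 (25.6, 20.9 and 21.1 CPM, against 27.99, 25.2 and 22.9 CPM) and ATF6 (74.4, 70.8 and 74.5 CPM, against 73.6, 69.3 and 73.5 CPM), none of which was called. Of the 20 called genes, 14 kept their call whichever library was left out. Scaled by library totals, 11 fell and 5 rose, against 2591 and 4086 of all 20495 genes tested. The noncoding RNA sum was 7886 to 8172 CPM with CX-5461, against 4462 to 4659 CPM with vehicle. The leukaemia line markers summed to 1289 to 1356 CPM, against 1176 to 1278 CPM, the fibroblast, endothelial and epithelial markers to 98.6 to 113 CPM, against 62.96 to 79.1 CPM, and the erythroid and megakaryocyte markers to 31.8 to 34.4 CPM, against 24.04 to 25.4 CPM. Their part was not tested.

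The effect at 12 h was then set against the effect at 3 h within Mv4;11. For PMR-116 the difference of the effects (12 h minus 3 h) was called for 22 of the 38 genes (57.9%, against 27.6% of all genes tested), 17 lower and 5 higher. Of all genes tested, 3166 were lower and 2493 higher. CALR (-1.19 ± 0.13 SE, adjusted p = 2.13e-07 by edgeR), CRELD2 (-1.14 ± 0.15, 4.29e-06), DERL3 (-1.07 ± 0.22, 0.000603) and MANF (-1.05 ± 0.15, 1.09e-05) had the largest differences. Of the 10 chaperones, 7 were lower at 12 h relative to 3 h (HSPA5, HSP90B1, HYOU1, DNAJB11, SDF2L1, MANF and CRELD2), and DNAJB9, DNAJC3 and DNAJC10 were not called. PDIA3, PDIA4, PDIA6, P4HB and ERO1A, the 5 isomerases and oxidases that fell at 12 h, had called differences of the same sign. XBP1 (0.65 ± 0.18), EDEM2 (0.46 ± 0.11), CREB3L2 (0.43 ± 0.12), EDEM1 (0.43 ± 0.08) and OS9 (0.27 ± 0.08) had the opposite sign. XBP1 and EDEM1 were thus nearer to their vehicles at 12 h than at 3 h, and the difference for HERPUD1 was not called. Without the vehicle library that stood apart, 18 were lower and 4 higher, and OS9 was the one of the 5 that lost its call (adjusted p = 0.0857). Of the 22 calls, 20 held whichever library was left out.

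For CX-5461 the difference between times was called for 11 genes (28.9%, against 16.7% of all genes tested), 5 lower and 6 higher. Of all genes tested, 1875 were lower and 1555 higher. DERL3 (-0.88 ± 0.22 SE, adjusted p = 0.00561 by edgeR) and ERO1A (-0.57 ± 0.12, 0.00220) were lower at 12 h relative to 3 h, with PDIA6, CALR and PDIA3. ERN1 (0.67 ± 0.13 SE, adjusted p = 0.000966 by edgeR) and SEC24D (0.52 ± 0.11, 0.00102) were higher, with EDEM3, CREB3L2, OS9 and EDEM1. The number lower was 3 without any of 5 libraries (vehicle 3 h replicates 1 and 3, vehicle 12 h replicates 1 and 2, and CX-5461 12 h replicate 3), and 7 of the 11 calls held whichever library was left out. Genes lower at both times numbered 12 for PMR-116 (of 16 at 3 h and 24 at 12 h) and 5 for CX-5461 (of 11 and 17: HYOU1, MANF, PDIA4, HERPUD1 and XBP1). The matching overlap over all genes was not computed, so these counts have no background and describe the members only.

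**Figure D3:**
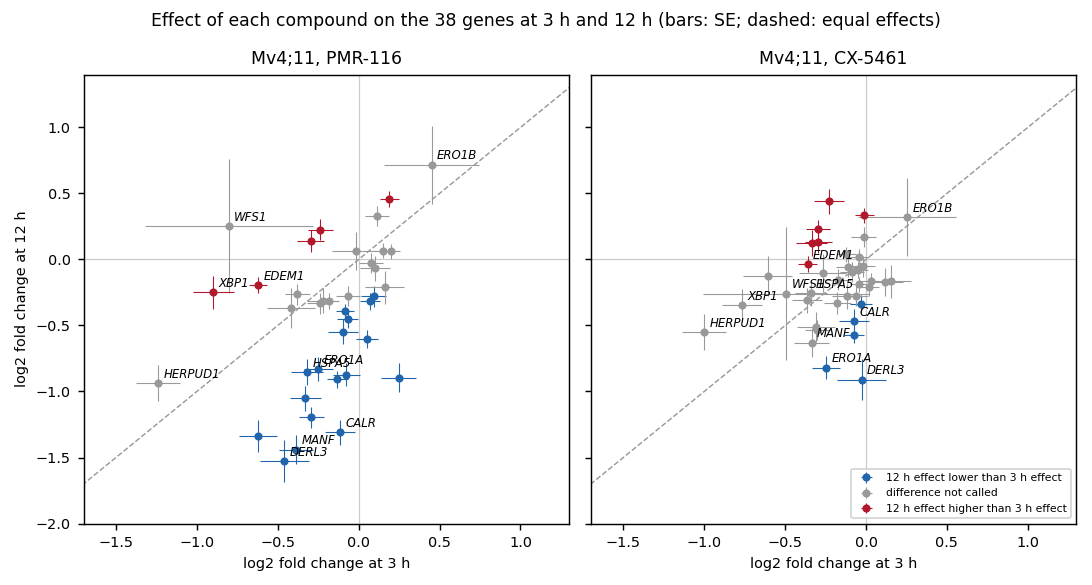
Log2 fold change at 12 h (vertical) against that at 3 h (horizontal) for the 38 genes in Mv4;11, PMR-116 left and CX-5461 right, with SE bars and a dashed line of equal effects. Blue genes had a lower effect at 12 h than at 3 h, red genes a higher one, and the difference was not called for grey genes. CALR, MANF and DERL3 lie well below the line under PMR-116, while XBP1 and EDEM1 lie above it.

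The 2 compounds were compared at the same dose and time through the difference of their effects (PMR-116 minus CX-5461), each against its own vehicle. At 12 h in Mv4;11, 10 genes were called (26.3%, against 5.11% of all genes tested, 787 lower and 260 higher). Each of the 10 had a lower effect under PMR-116, the more frequent direction over all genes too. They were CALR (-0.84 ± 0.13 SE, adjusted p = 0.000407 by edgeR), SDF2L1 (-0.82 ± 0.17, 0.00375), MANF (-0.81 ± 0.15, 0.00248), HYOU1 (-0.74 ± 0.13, 0.00176), CRELD2 (-0.72), PDIA4 (-0.66), HSPA5 (-0.60), HSP90B1 (-0.54), ERN1 (-0.51) and PDIA6 (-0.33). Of these, 6 belong to the HSP70 and HSP90 chaperone class. The call of ERN1 ended without any of 8 libraries, among them the vehicle library that stood apart (adjusted p = 0.0763), and without that library 11 genes were called lower. For members not called, the 95% interval of the difference was -0.76 to -0.01 for HERPUD1, -1.05 to -0.18 for DERL3, -0.26 to 0.24 for ERO1A and -0.04 to 0.29 for OS9.

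At 3 h in Mv4;11, SYVN1 was the 1 gene called (2.63%, against 1.34% of all genes tested), with a difference of 0.32 ± 0.08 (SE, adjusted p = 0.0378 by edgeR). This call was lost without any 1 of 10 of the 12 libraries (adjusted p = 0.0521 to 0.126), and 2 genes were called without vehicle (PMR-116) replicate 1. For HERPUD1 the 95% interval of the difference at 3 h was -0.61 to 0.14, for XBP1 it was -0.48 to 0.22, and for HSPA5 it was -0.25 to 0.30. Genes called lower by both compounds at 3 h numbered 9, which is 56.25% of the PMR-116 genes and 81.82% of the CX-5461 genes, against 37.5% and 74.4% over all genes called lower. At 12 h there were 16, which is 66.67% and 94.12%, against 64.8% and 88.4% over all genes called lower, so this overlap lies near the background.

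In KG-1 few of these genes fell, and so did few of all genes tested. After 3 h of PMR-116, 2 of the 38 genes were higher and 0 were lower in KG-1 by edgeR (5.26% and 0%, against 3.61% and 3.71% of all genes tested). At an unadjusted p below 0.05, 9 were higher and 0 were lower. DESeq2 called 4 higher and 0 lower, against 911 and 822 of all 18618 genes tested. SYVN1 had 72.2, 78.5, 74.8 and 70.1 CPM, against 60.9, 58.5, 59.6 and 58.7 CPM with vehicle (log2 fold change 0.31 ± 0.06 SE, adjusted p = 0.000368 by edgeR). EDEM3 had 102, 116, 107 and 120.1 CPM, against 84.8, 95.3, 98.1 and 93.3 CPM (0.26 ± 0.08 SE, adjusted p = 0.0338 by edgeR). Neither gene's groups overlapped. The call of SYVN1 held whichever library was left out, and the count was 1 without PMR-116 replicate 2 or 4 or vehicle replicate 2 or 4. With a term for replicate number in the fit (a replicate block), more of the 38 genes were called in each KG-1 comparison with vehicle. Those counts are given with the processing alternatives.

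The genes with the deepest falls in Mv4;11 had other values in KG-1 at 3 h of PMR-116. HERPUD1 had 42.6, 59.2, 54.4 and 55.2 CPM, against 44.7, 61.4, 55.9 and 66.7 CPM with vehicle (log2 fold change -0.12 ± 0.16). XBP1 had 235, 256, 238 and 261 CPM, against 266, 299, 264 and 291 CPM (-0.18 ± 0.09), where the highest PMR-116 library lay below the lowest vehicle library. HSPA5 had 531, 352, 380.1 and 400.3 CPM, against 505, 321, 350.2 and 381 CPM (0.10 ± 0.15), and replicate 1 was the highest of both groups. DNAJB9 had 3.44, 3.91, 4.35 and 4.01 CPM, against 3.05, 2.11, 2.97 and 3.20 CPM, with no overlap and a log2 fold change of 0.47 ± 0.16 (adjusted p = 0.0697 by edgeR). Of the sensors, ERN1 was low (1.303, 2.24, 1.43 and 1.37 CPM, against 1.47, 2.07, 1.79 and 2.04 CPM). EIF2AK3 (12.1, 11.8, 15.6 and 13.9 CPM, against 10.7, 11.6, 12.2 and 11.7 CPM) and ATF6 (121, 115, 127 and 139 CPM, against 119, 119, 122 and 129.9 CPM) overlapped between the groups and were not called. The noncoding RNA sum was 5653 to 5976 CPM with PMR-116, against 3383 to 4301 CPM with vehicle, and its part was not tested.

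At 12 h of PMR-116, 8 genes were higher and 2 lower in KG-1 by edgeR (21.1% and 5.26%, against 4.73% and 4.74% of all genes tested). The higher genes were HSP90B1, DNAJC10, CALR, CANX, SYVN1, ATF6, SEC61B and SEC24D, and the lower ones DERL3 and EDEM2. The median log2 fold change of the 38 was 0.10, against 0.00 over all genes, and the libraries overlapped for 29 of them and for 87% of all genes tested. HSP90B1, the ER member of the HSP90 family, had 418, 406, 437 and 402 CPM, against 345, 327, 324 and 337 CPM with vehicle (0.32 ± 0.06 SE, adjusted p = 0.000329 by edgeR). SEC61B had 54.7, 48.2, 49.5 and 49.3 CPM, against 44.5, 37.1, 35.6 and 38.6 CPM (0.37 ± 0.08 SE, adjusted p = 0.00200 by edgeR). In both genes every PMR-116 library was above every vehicle library.

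SEC24D had 9.0005, 10.01, 7.35 and 8.26 CPM in KG-1 at 12 h of PMR-116, against 7.30, 6.42, 6.39 and 6.04 CPM (0.40 ± 0.12 SE, adjusted p = 0.0352 by edgeR). DNAJC10 had 96.8, 109.5, 156 and 90.9 CPM, against 97.2, 84.9, 94.3 and 76.5 CPM (0.36 ± 0.10 SE, adjusted p = 0.0252 by edgeR). The groups of DNAJC10 overlapped, replicate 3 held the high value, and without it the log2 fold change was 0.17 (adjusted p = 0.218). ATF6 had 148, 149.8, 134 and 138 CPM, against 132, 123, 114 and 127 CPM (0.20 ± 0.06 SE, adjusted p = 0.0413 by edgeR). DERL3 had 10.5, 10.2, 11.2 and 10.3 CPM, against 14.8, 12.7, 13.1 and 14.5 CPM (-0.38 ± 0.12 SE, adjusted p = 0.0380 by edgeR), and EDEM2 had 40.3, 40.1, 33.2 and 37.1 CPM, against 45.7, 48.4, 41.6 and 43.5 CPM (-0.25 ± 0.07 SE, adjusted p = 0.0250 by edgeR). Apart from DNAJC10, none of the groups in these sentences overlapped.

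At the same time in KG-1, HSPA5 (308, 273, 224 and 244 CPM, against 285, 244, 214 and 235 CPM), HERPUD1 (66.2, 81.1, 48.6 and 59.6 CPM, against 62.0, 71.2, 62.5 and 62.0 CPM) and XBP1 (386, 423, 312 and 342 CPM, against 333, 334, 283 and 309 CPM) were not called. Nor were DNAJB9 (4.73, 3.45, 4.76 and 4.23 CPM, against 3.66, 3.01, 4.03 and 3.71 CPM), ERN1 (1.72, 1.54, 1.32 and 1.19 CPM, against 1.86, 1.78, 1.73 and 1.77 CPM) and EIF2AK3 (13.3, 14.98, 16.1 and 15.2 CPM, against 13.4, 14.6, 13.1 and 16.4 CPM). Apart from ERN1, whose values were all lower with PMR-116, these groups overlapped. Of the 10 calls, those of HSP90B1, SEC61B and SYVN1 held whichever library was left out. The number higher was 4 without PMR-116 replicate 1, 2 or 4 or vehicle replicate 2 or 3, and 3 without vehicle replicate 4. The number lower was 0 without PMR-116 replicate 3 or 4 or vehicle replicate 1, and 1 without vehicle replicate 2 or 4. Scaled by library totals, 9 rose and 4 fell, against 997 and 986 of all 18618 genes tested. With no filter on low counts 4 rose and 0 fell, against 583 and 569 of 34615 genes. The 7 noncoding RNAs summed to 8774 to 11264 CPM with PMR-116, against 4797 to 6858 CPM with vehicle, and their part was not tested.

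CX-5461 changed few of these genes in KG-1. At 3 h, 1 gene was higher and 0 were lower by edgeR (2.63% and 0%, against 1.85% and 1.58% of all genes tested). With an unadjusted p below 0.05, 3 were higher and 1 was lower, and DESeq2 called 1 higher and 0 lower. The gene called by edgeR was SYVN1, with 63.2, 68.3, 63.2 and 59.7 CPM, against 53.9, 57.7, 57.5 and 50.7 CPM with vehicle (log2 fold change 0.21 ± 0.06 SE, adjusted p = 0.0277 by edgeR), and its groups did not overlap. The call was lost without CX-5461 replicate 1, 2 or 3 or vehicle replicate 1 or 4 (adjusted p = 0.0553 to 0.127). Scaled by library totals, 1 was higher and 1 lower, against 308 and 419 of all 18618 genes tested.

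At 12 h of CX-5461 in KG-1, 0 genes were higher and 0 lower by edgeR, against 1.36% and 1.18% of all genes tested. At an unadjusted p below 0.05, 6 were higher and 1 was lower. DESeq2 called 2 higher and 0 lower, against 430 and 373 of all 18618 genes tested. The count higher was 1 without vehicle replicate 1 or CX-5461 replicate 3, and 2 without vehicle replicate 2. HERPUD1 had 33.5, 60.1, 34.8 and 49.1 CPM at 3 h of CX-5461, against 48.3, 59.1, 49.0 and 58.1 CPM, and 53.7, 69.3, 51.6 and 54.6 CPM at 12 h, against 50.5, 62.2, 52.8 and 60.7 CPM. XBP1 had 241, 265, 217 and 247 CPM at 3 h, against 277, 297, 264 and 287 CPM, and 332, 349.8, 265 and 306 CPM at 12 h, against 332, 329, 268 and 289 CPM. The groups of both genes overlapped at both times. HSPA5 had 501, 341, 358 and 381 CPM at 3 h, against 498, 323, 364 and 365 CPM, and 307, 253, 215 and 234 CPM at 12 h, against 299, 244, 212 and 228 CPM, so its groups nearly coincided (log2 fold changes 0.03 ± 0.15 and 0.04 ± 0.15). DNAJB9, ERN1, EIF2AK3 and ATF6 were not called.

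The difference between the compounds (PMR-116 minus CX-5461) was called for 0 of the 38 genes in KG-1 at 3 h (0.0107% of all genes tested) and for 0 at 12 h (0.0483%). At an unadjusted p below 0.05 the members numbered 0 and 2, and DESeq2 called 0 at both times. The 12 h effect minus the 3 h effect was called by edgeR for 0 genes with PMR-116 (1.69% of all genes) and 0 with CX-5461 (0.263%), with 6 and 2 at an unadjusted p below 0.05 and 0 by DESeq2. Without PMR-116 12 h replicate 3, 1 gene was called higher in the PMR-116 difference between times. At 12 h the 95% interval of the compound difference in KG-1 was -0.15 to 0.41 for CALR and -0.37 to 0.32 for MANF.

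**Figure D4:**
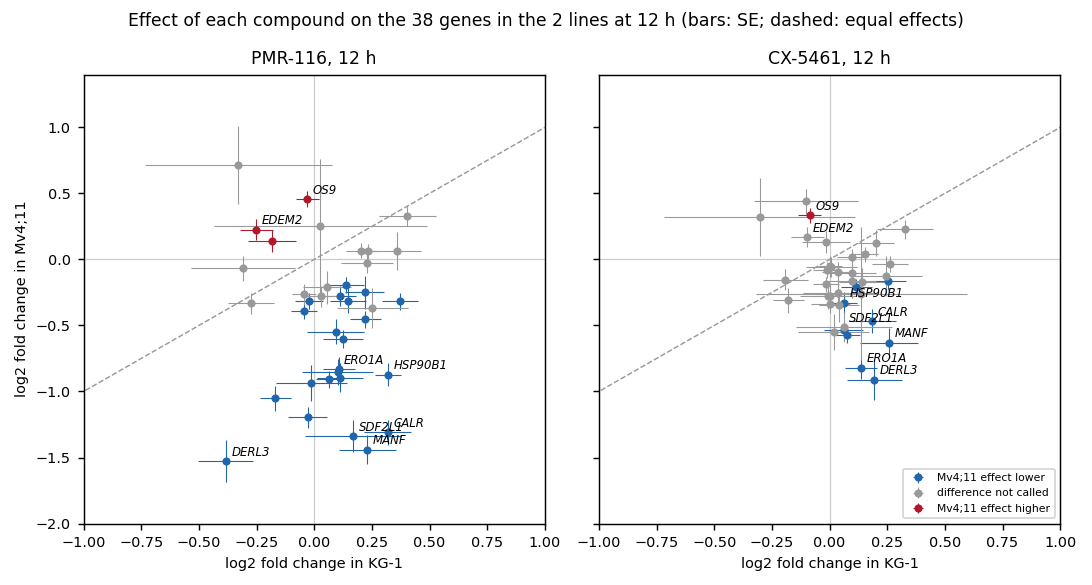
Log2 fold change in Mv4;11 (vertical) against that in KG-1 (horizontal) for the 38 genes at 12 h, PMR-116 left and CX-5461 right, with SE bars and a dashed line of equal effects. Blue genes had a lower effect in Mv4;11, red genes a higher one, and the difference was not called for grey genes. Under PMR-116, 8 of the 10 chaperones had a lower effect in Mv4;11, where MANF lies at -1.44, and the difference was not called for DNAJB9 and DNAJC10.

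The effects in the 2 lines were compared in 1 fit of all 16 groups (Mv4;11 minus KG-1), in which line and batch cannot be told apart. For PMR-116 at 3 h, 7 genes were called, all lower (18.4%, against 6.94% of all genes tested, 759 lower and 891 higher). They were HERPUD1 (-1.07 ± 0.22 SE, adjusted p = 0.00113 by edgeR), SDF2L1 (-0.89 ± 0.27, 0.0351), DNAJB9 (-0.83 ± 0.23, 0.0163), XBP1 (-0.67 ± 0.16, 0.00368), MANF, EDEM3 and EDEM1. The number was 12 without Mv4;11 PMR-116 replicate 1 and 11 without Mv4;11 vehicle replicate 3. The call of SDF2L1 ended without KG-1 PMR-116 replicate 1 (adjusted p = 0.0932), KG-1 vehicle replicate 2 (0.0695) or Mv4;11 PMR-116 replicate 3 (0.0579).

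For PMR-116 at 12 h, 25 genes differed between the lines (65.8%, against 25.4% of all genes tested), 22 lower and 3 higher. Of all genes tested, 3143 were lower and 2884 higher. MANF (-1.61 ± 0.18 SE, adjusted p = 8.70e-10 by edgeR), CALR (-1.57 ± 0.15, 7.68e-12), SDF2L1 (-1.45 ± 0.28, 5.21e-05) and HSP90B1 (-1.13 ± 0.10, 1.91e-12) differed most. HSPA5 differed by -0.90 and HERPUD1 by -0.87. OS9, EDEM2 and CREB3L2 were the higher ones. Leaving out Mv4;11 vehicle replicate 3 gave 23 lower and 2 higher. Of the 25 calls, 20 held whichever library was left out.

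For CX-5461 at 3 h, 3 genes were lower in Mv4;11 relative to KG-1 (7.89%, against 3.07% of all genes tested, 357 lower and 373 higher). The 3 were DNAJB9 (-0.96 ± 0.23 SE, adjusted p = 0.00835 by edgeR), EDEM3 (-0.52 ± 0.13, 0.0104) and SYVN1 (-0.30 ± 0.08, 0.0155). Without KG-1 CX-5461 replicate 3 the number was 6, and the call of EDEM3 ended without Mv4;11 CX-5461 replicate 1 (adjusted p = 0.0501). At 12 h, 10 genes differed (26.3%, against 16.2% of all genes tested), 9 lower and OS9 higher. Of all genes tested, 2149 were lower and 1705 higher. DERL3 (-1.08 ± 0.20 SE, adjusted p = 4.89e-05 by edgeR), ERO1A (-0.93 ± 0.12, 2.53e-08), MANF (-0.86 ± 0.18, 0.000429) and CALR (-0.63 ± 0.15, 0.00187) differed most. The number lower was 17 without KG-1 vehicle replicate 1 and 15 without KG-1 CX-5461 replicate 3, and the number higher was 2 without Mv4;11 CX-5461 replicate 1, KG-1 CX-5461 replicate 2 or 3, or KG-1 vehicle replicate 3.

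Before any compound the lines differed in most genes tested, these among them. Over the 12 vehicle libraries of Mv4;11 and the 16 of KG-1, 37 of the 38 genes differed (97.4%, against 88.1% of all genes tested), a number near the background. By direction, 29 were higher and 8 lower in Mv4;11, against 11507 and 9414 of all 23759 genes tested. The member that did not differ was PDIA3. All Mv4;11 vehicle libraries lay above all KG-1 vehicle libraries for 27 genes, below for 3, and overlapped for 8, against 29.1% above and 21.7% below among the 16424 genes tested in both lines. The difference was largest for ERN1, which had a lowest, median and highest value of 20.7, 23.2 and 29.5 CPM in Mv4;11 vehicle libraries, against 1.39, 1.79 and 2.36 CPM in KG-1 vehicle libraries (log2 difference 3.51 in the joint fit). HERPUD1 had 138, 149.6 and 182 CPM, against 44.7, 59.9 and 71.2 CPM (1.17), and HSPA5 had 650.2, 786 and 860.1 CPM, against 212, 310.1 and 505 CPM (1.10). DNAJB9 had 11.5, 14.7 and 18.4 CPM, against 2.10, 3.21 and 4.03 CPM (2.04).

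Of the other sensors in vehicle libraries, EIF2AK3 had 22.9, 27.2 and 29.7 CPM in Mv4;11, against 10.7, 12.2 and 16.4 CPM in KG-1 (log2 difference 0.82). ATF6 went the other way, with 64.3, 69.9 and 74.3 CPM in Mv4;11, against 112, 125 and 133 CPM in KG-1 (-1.06). For XBP1 the libraries overlapped, with 229, 277 and 302 CPM in Mv4;11, against 264, 290.2 and 334 CPM in KG-1 (-0.34). CPM values are scaled within each line, and the log2 differences come from the joint fit.

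The vehicle groups were compared with each other as a background. None of the 38 genes was called by edgeR between the vehicle of PMR-116 and the vehicle of CX-5461, at either time in either line (0 genes each, against 0% of all genes tested). At an unadjusted p below 0.05 the members numbered 1 (3 h) and 2 (12 h) in Mv4;11 and 2 (3 h) and 0 (12 h) in KG-1, and DESeq2 called 0 in all 4. Between 12 h and 3 h, the Mv4;11 vehicle libraries had 1 gene higher (EDEM2) and 2 lower (SYVN1 and EDEM1), which is 2.63% and 5.26%, against 5.44% and 7.42% of all genes tested. The KG-1 vehicle libraries had 2 higher at 12 h (ERO1A and EIF2AK3) and 15 lower, which is 5.26% and 39.5%, against 16.2% and 15.4% of all genes tested. Among these 15 were HSPA5 (log2 difference -0.66), CRELD2 (-0.56), SDF2L1 (-0.51) and CALR (-0.40), so several chaperones differed between the times in KG-1 without any compound.

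Beyond the 38 genes, 155 other genes of the ER pathway were listed by function, of which 151 were tested in Mv4;11 and 150 in KG-1. In Mv4;11 the falls were 26 at 3 h and 69 at 12 h of PMR-116 (with 21 and 24 rises), and 15 and 55 with CX-5461 (with 6 and 13 rises). As shares of the 151, the falls were 17.2% and 45.7% with PMR-116, against 13.1% and 22.5% of all genes tested, and 9.93% and 36.4% with CX-5461, against 6.61% and 16.5%. The rises were 13.9% and 15.9% with PMR-116, against 11% and 20.7% of all genes tested, and 3.97% and 8.61% with CX-5461, against 5.05% and 14.8%. Leaving out vehicle replicate 3, 72 of 152 fell and 17 rose at 12 h of PMR-116. At 12 h they were most frequent in targeting, translocon and signal peptidase genes, of which 16 of 22 fell with PMR-116 and 11 of 22 with CX-5461. N-glycosylation and glycoprotein quality control followed with 12 and 9 of 19, and COPII export and KDEL retrieval with 13 and 10 of 24. Other thiol enzymes had 7 and 6 of 15, and other chaperones and prolyl isomerases 3 and 3 of 14 (21.4% each, near the share of all genes). The other degradation genes were mixed at 12 h of PMR-116, with 9 of 25 lower and 8 higher. Other stress transducers and their regulators had 5 of 19 lower and 5 higher there (26.3% each, also near the share of all genes). In KG-1 the rises and falls of the 150 genes were 8 and 2 at 3 h and 15 and 9 at 12 h of PMR-116, and 4 and 2, then 1 and 1, with CX-5461. Of all genes tested in KG-1, 3.61% rose and 3.71% fell at 3 h of PMR-116, and 4.73% and 4.74% at 12 h. With CX-5461 the shares were 1.85% and 1.58% at 3 h, and 1.36% and 1.18% at 12 h.

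Named members of these lists in Mv4;11 included PRDX4, the peroxiredoxin of the ER, which fell by 1.71 on the log2 scale at 12 h of PMR-116 and by 1.14 with CX-5461. SPCS3, a subunit of signal peptidase, fell by 0.84 with PMR-116, and SRP9, of the signal recognition particle, by 0.64 with CX-5461. UAP1, which makes the sugar donor UDP-N-acetylglucosamine, fell by 1.25 with PMR-116, and the cargo receptor LMAN1 by 0.78 and 0.53 with PMR-116 and CX-5461. QSOX1, a sulfhydryl oxidase, rose by 0.97 and 0.46.

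The PERK and ATF4 arm, which the 38 genes hold only through EIF2AK3 itself, moved in both directions. Of its 13 genes, 4 rose and 5 fell at 3 h of PMR-116, 4 and 4 at 12 h, 3 and 3 at 3 h of CX-5461, and 3 and 5 at 12 h. At 3 h of PMR-116 this is 30.8% higher and 38.5% lower, against 11% and 13.1% of all genes tested. At 3 h of CX-5461 it is 23.1% in each direction, against 5.05% higher and 6.61% lower. The shares at 12 h of PMR-116 were 30.8% in each direction, against 20.7% of all genes tested higher and 22.5% lower, so the count of this arm there lies near the background. At 12 h of CX-5461 they were 23.1% higher and 38.5% lower, against 14.8% and 16.5%. SESN2, a stress-induced inhibitor of mTORC1 signalling, had log2 fold changes of 2.39 and 1.57 with PMR-116 and 2.45 and 1.24 with CX-5461 at 3 h and 12 h. DDIT3 (CHOP) fell by 0.71 with PMR-116 and by 0.57 with CX-5461 at 3 h. TRIB3 fell by 1.03 at 12 h of PMR-116 and ATF4 by 0.79 at 12 h of CX-5461. HERPUD2, a paralog of HERPUD1, rose by 0.62 with PMR-116 and by 0.64 with CX-5461 at 3 h. The bar plot of the share of genes called shows all lists.

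**Figure D5:**
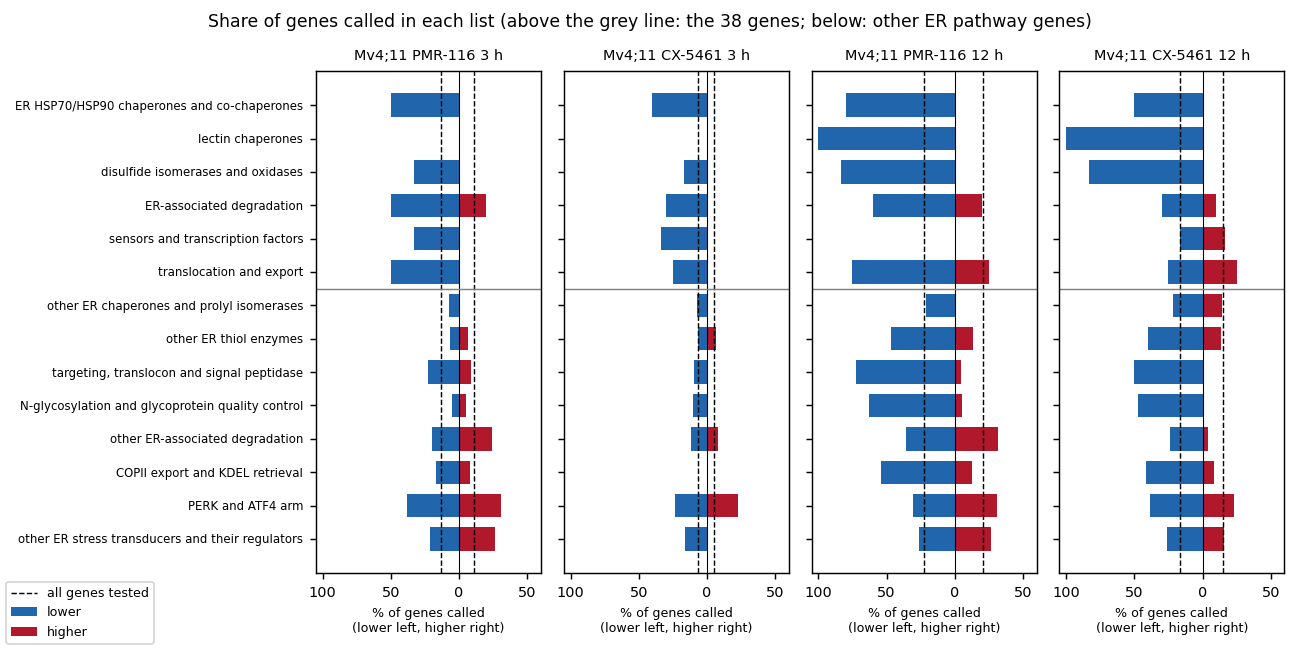
Percent of the genes tested in each list that were called lower (blue, to the left) or higher (red, to the right) in Mv4;11, one panel per compound and time, with dashed lines at the percent of all genes tested. Lists above the grey line hold the 38 genes by role, those below the other ER pathway genes. At 12 h of PMR-116 both lectin chaperones and 8 of 10 HSP70 and HSP90 chaperones were lower, and none of the 6 sensors and transcription factors was called.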

How the data were processed

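Messenger RNA was sequenced from 56 libraries in 16 groups, with groups, doses and times taken from the labels. The authors deposited a table of estimated counts per gene for each line, quantified with Salmon 1.5.2 on GRCh38.p13, per the submitters' processing notes, which also name DESeq2. In the table of Mv4;11, 24 columns matched no sample and were not used. Estimated counts were rounded to whole numbers. Genes were kept with edgeR's filterByExpr (minimum count 10, minimum total 15), scaled by TMM and tested with the quasi-likelihood test of edgeR 4.0.16 (limma 3.58.1, R 4.3.3), in 1 fit of the 8 groups of each line and, for differences between lines, 1 fit of all 16 groups. Adjusted p-values are Benjamini-Hochberg values over all genes tested, and a gene was called below 0.05. The SE is the absolute log2 fold change divided by the square root of the F statistic, and 95% intervals use normal quantiles. CPM uses the TMM library sizes within each line. The p-values printed in the text all come from these fits across all genes. Counts of members at an unadjusted p below 0.05 stand without a share over all genes, which was not computed.

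The depth of 28751951 to 72707768 counts a library leaves genes near 1 CPM, such as WFS1 and KG-1 ERN1, with wide intervals. Within groups, the 72 pairs of libraries correlated at 0.980 to 0.990, and the smallest chi-square per degree of freedom was 7.01, so no library was counted as a copy of another. The test was checked on simulated counts. The members and gene lists were chosen with earlier results of these data known. All 38 members may be named. The naming rule lets values of every library be given for HSPA5, HERPUD1, DNAJB9, XBP1, ERN1, EIF2AK3 and ATF6 and, in each comparison of a compound with its vehicle, for the 4 called members with the largest rise and the 4 with the largest fall, with a mean of at least 5 CPM in the higher group. For differences the 4 largest called are named, and of other pathway genes the called gene with the largest rise or fall in its list. Alternatives were median-ratio size factors, library totals, no filter, DESeq2 1.42.0, a replicate block and leaving out each library.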

Additional observations from a re-analysis of the deposited data

Results flagged for a closer look

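In groups of 4 KG-1 libraries, 5 values of the 7 genes followed in every library lay far from the rest of their group by Dixon's criterion, out of 56 groups of values examined, where chance gives about 1 in 20. ERN1 had 2.24 CPM in PMR-116 3 h replicate 2, 1.82 CPM in vehicle (CX-5461) 3 h replicate 2 and 2.91 CPM in CX-5461 12 h replicate 3. HERPUD1 had 69.3 CPM in CX-5461 12 h replicate 2 and 71.2 CPM in vehicle (PMR-116) 12 h replicate 2. None of these groups gave a call for ERN1 or HERPUD1 in KG-1.

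The effect of a compound differed between times or lines by a test of the difference itself (edgeR, adjusted p below 0.05). Between 12 h and 3 h in Mv4;11, 22 of the 38 genes differed for PMR-116 and 11 for CX-5461. Between Mv4;11 and KG-1, 7 genes differed for PMR-116 at 3 h and 25 at 12 h, and 3 differed for CX-5461 at 3 h and 10 at 12 h. Line and batch cannot be told apart in these.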

How the results depend on the processing

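No called value of a named gene reversed its direction under the alternatives run. Median-ratio size factors kept every count of members within 1.5 times. Of 178 called values of named genes, 28 lost their call with library totals, 22 with no filter, 1 with median-ratio size factors, 1 with the replicate block and 0 with DESeq2. With library totals, members higher in Mv4;11 numbered 4 (PMR-116 3 h), 7 (PMR-116 12 h) and 5 (CX-5461 12 h, with 11 lower), and 2 were higher for PMR-116 minus CX-5461 at 3 h. Of all 20495 genes tested, 2877, 6275, 4086 (with 2591 lower) and 170 were higher, in the same order. In KG-1 that scaling gave 1 higher (PMR-116 3 h), 4 lower (PMR-116 12 h), 1 lower (CX-5461 3 h), 1 higher (CX-5461 12 h) and 1 higher (PMR-116, 12 h minus 3 h). The matching counts over all 18618 genes tested were 552, 986, 419, 307 and 278. For Mv4;11 minus KG-1 library totals gave 1 higher (PMR-116 3 h), 5 lower (CX-5461 3 h) and 2 higher (CX-5461 12 h). The matching counts over all 23759 genes tested were 1047, 424 and 2164. With no filter there were 5 higher (Mv4;11 PMR-116 12 h), 1 lower (PMR-116 minus CX-5461, Mv4;11 3 h), 4 higher and 0 lower (KG-1 PMR-116 12 h), 0 higher (KG-1 CX-5461 3 h) and 5 lower (Mv4;11 minus KG-1, CX-5461 3 h). The matching counts over all genes were 4997 and 370 of 41723 in Mv4;11. They were 583, 569 and 199 of 34615 in KG-1, and 301 of 43854 between the lines. DESeq2 gave 2 higher and 2 lower (PMR-116 minus CX-5461, Mv4;11 3 h), 4 higher (KG-1 PMR-116 3 h), 2 higher (KG-1 CX-5461 12 h) and, for Mv4;11 minus KG-1, 11 lower (PMR-116 3 h), 6 lower (CX-5461 3 h) and 2 higher (CX-5461 12 h). The matching counts over all genes were 267 and 341 of 20495 in Mv4;11, and 911 and 430 of 18618 in KG-1. Between the lines they were 1320, 683 and 2007 of 23759. The cause of the changes in the counts of members was not tested.

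No label says that libraries with the same replicate number were paired. Their deviations correlated weakly, at -0.0133 to 0.110 over 12 pairs of libraries in Mv4;11 and at 0.0237 to 0.238 over 16 in KG-1. Of these, 1 and 9 were above 0.1. Still, 10 of the 12 and 13 of the 16 were best with their own number, so a pairing by replicate remains possible. The main fit does not use it. With the replicate block, PMR-116 minus CX-5461 in Mv4;11 at 3 h had 2 higher and 1 lower, against 155 and 208 of all 20495 genes tested. In KG-1 the block gave 14 higher and 2 lower (PMR-116 3 h), 12 higher and 4 lower (PMR-116 12 h), 6 higher and 1 lower (CX-5461 3 h), 5 higher and 1 lower (CX-5461 12 h), 1 higher (PMR-116 minus CX-5461, 12 h), 3 higher and 3 lower (PMR-116, 12 h minus 3 h) and 1 higher (CX-5461, 12 h minus 3 h). For Mv4;11 minus KG-1 it gave 1 higher and 13 lower (PMR-116 3 h), 9 lower (CX-5461 3 h), and 2 higher and 14 lower (CX-5461 12 h). The matching counts over all 23759 genes tested were 1267 and 1190, 657, and 2155 and 2671. The calls over all genes also rose in KG-1. At 3 h of PMR-116 the block gave 1370 higher and 1229 lower of 18618, against 673 and 691 without it. At 12 h it gave 1649 and 1549, against 880 and 882. With CX-5461 the block gave 1033 and 700 at 3 h, against 345 and 295, and 757 and 556 at 12 h, against 254 and 219. For PMR-116 minus CX-5461 at 12 h it called 62 genes higher. For 12 h minus 3 h it called 546 higher and 689 lower with PMR-116, and 177 higher with CX-5461.

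Leaving out 1 library at a time, the counts higher and lower in Mv4;11 ranged over 1 to 4 and 8 to 15 (PMR-116 3 h), 2 to 3 and 22 to 25 (PMR-116 12 h), 0 and 4 to 11 (CX-5461 3 h), and 2 to 3 and 12 to 18 (CX-5461 12 h). For PMR-116 minus CX-5461 they ranged over 0 to 2 and 0 to 1 (3 h) and 0 and 8 to 11 (12 h), and for 12 h minus 3 h over 4 to 5 and 16 to 18 (PMR-116) and 5 to 6 and 3 to 7 (CX-5461). In KG-1 they ranged over 1 to 2 and 0 (PMR-116 3 h), 3 to 8 and 0 to 3 (PMR-116 12 h), 0 to 1 and 0 (CX-5461 3 h), 0 to 2 and 0 (CX-5461 12 h), and 0 to 1 and 0 (PMR-116, 12 h minus 3 h). For Mv4;11 minus KG-1 they ranged over 0 and 5 to 12 (PMR-116 3 h), 2 to 3 and 19 to 25 (PMR-116 12 h), 0 and 3 to 6 (CX-5461 3 h), and 1 to 2 and 8 to 17 (CX-5461 12 h). Calls over all genes with a library left out are not given. These ranges, and the counts without a library given above, therefore describe the members only.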
